A study of Danio rerio with 6 samples.

Results

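Genes that encode RNA-binding proteins of maternal translational control were examined in zebrafish zygotes: the Pumilio gene pum2, the Staufen genes stau1 and stau2, igf2bp3, elavl1, the zinc finger gene cth1 and the cytoplasmic polyadenylation element binding (CPEB) genes cpeb1b, cpeb4a and cpeb4b. They were chosen by name and not by a rule on their values, but earlier results of these data were known. Of the 9 names, 6 stood as symbols among the 21051 genes of the table (pum2, stau1, stau2, igf2bp3, elavl1 and cth1), and these 6 are the members counted here. Further CPEB rows were found through RefSeq synonyms: the row with the symbol cepb1b, a listed synonym of cpeb1b (also called zorba), and the row with the symbol cpeb4, a listed synonym of cpeb4a. They are described beside the members and not counted with them. No row was matched to cpeb4b, which is not analysed here.

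The study used RNA immunoprecipitation and sequencing (RIP-seq): RNA recovered with Tdrd6a, a multi-Tudor-domain protein of the germ plasm, was set against input RNA of the same kind of sample. The groups are Tdrd6a_IP (immunoprecipitate, IP; n = 3) and Input (n = 3), all labelled as zebrafish zygotes kept under standard conditions, with no genotype, strain or age given in the labels. A control precipitation with another antibody was not analysed here. The labels do not tie replicates to separate clutches; p-values then reflect only how far these libraries spread, which may be technical. The series design text speaks of ovary tissue or RIP; the sample labels were followed.

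A fish egg is transcriptionally silent until the zygotic genome is switched on, so its first cell cycles run on stored mRNA. Proteins that bind the 3′ untranslated regions of those mRNAs decide when each is translated, where it is held and when it decays. Pumilio proteins repress their targets together with Nanos and the Ccr4-Not deadenylase. CPEB proteins hold mRNAs with short poly(A) tails and later promote their polyadenylation. Staufen proteins bind double-stranded RNA and act in mRNA transport, and Igf2bp and Elavl proteins mostly protect bound mRNAs. Zinc finger proteins of the tristetraprolin family, to which Cth1 is related, bind AU-rich elements and recruit deadenylases. The values below are levels of the mRNAs that encode these proteins; the proteins themselves, and the mRNAs they bind, were not measured.

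The deposited normalized counts scale each library by its own factor, so a value in IP is relative to the other transcripts recovered there. Library depth was 4031863 to 22466764 reads, with IP replicate 2 the shallowest, and each member had at least 125 reads in every library. The summed level of the 10 maternal egg markers found was 40779 to 41746 normalized counts in input and 30010 to 38824 in IP, mostly from nanog, buc, ccnb1 and pou5f3, while zar1 (6.1 to 116.6) and zp2.2 (9.7 to 45.1) were low. The summed level of 7 zygotic or somatic markers was 3.4 to 23.5 in input and 3.5 to 4.8 in IP. Of these, sox17 was at 0 throughout and tbx16, gata1a and myod1 were at 0 in every input library. Most of the input maximum came from krt4 (3.4, 22.8 and 0 in input replicates 1, 2 and 3). In input replicate 3, tbxta was at 5.5 and actc1b at 2.7. The 4 ovarian follicle cell markers found summed to 8.8 to 39.2 in input and 18.1 to 26.3 in IP, mostly from gsdf, with cyp19a1a at 0. The tdrd6 row, the transcript of the precipitated protein family, had 8444.6, 1383.6 and 7708.2 normalized counts in IP replicates 1, 2 and 3 against 2678.8 to 2853.6 in input, so IP replicate 2 stood apart for it.

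Of these transcripts, 1 was called depleted in the Tdrd6a precipitate. The transcript of cth1 was 2.40-fold lower in IP, while those of pum2, stau1, stau2, igf2bp3 and elavl1 were not called in either direction. No member was called higher. Estimates are log2 fold changes of IP over input, on log2 of normalized count + 4. They lay below 0 for 5 of the 6 members, against 50.4% of all genes tested. The median of the members was -0.43, against -0.01 over all genes tested. Over all 13265 genes with a mean normalized count of at least 10, limma called 838 (6.32%), taking an adjusted p below 0.05 as the threshold: 591 (4.46%) higher in IP and 247 (1.86%) lower. On recovered reads edgeR called 6.34%. With replicate number as a block limma called 1392 (10.5%), 925 higher and 467 lower. With library size as the only scaling limma called 474 higher and 383 lower, and the median log2 fold change of all genes was -0.18. The call of 1 among 6 members rests on so few genes that it is read for cth1 alone.

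**Figure D1:**
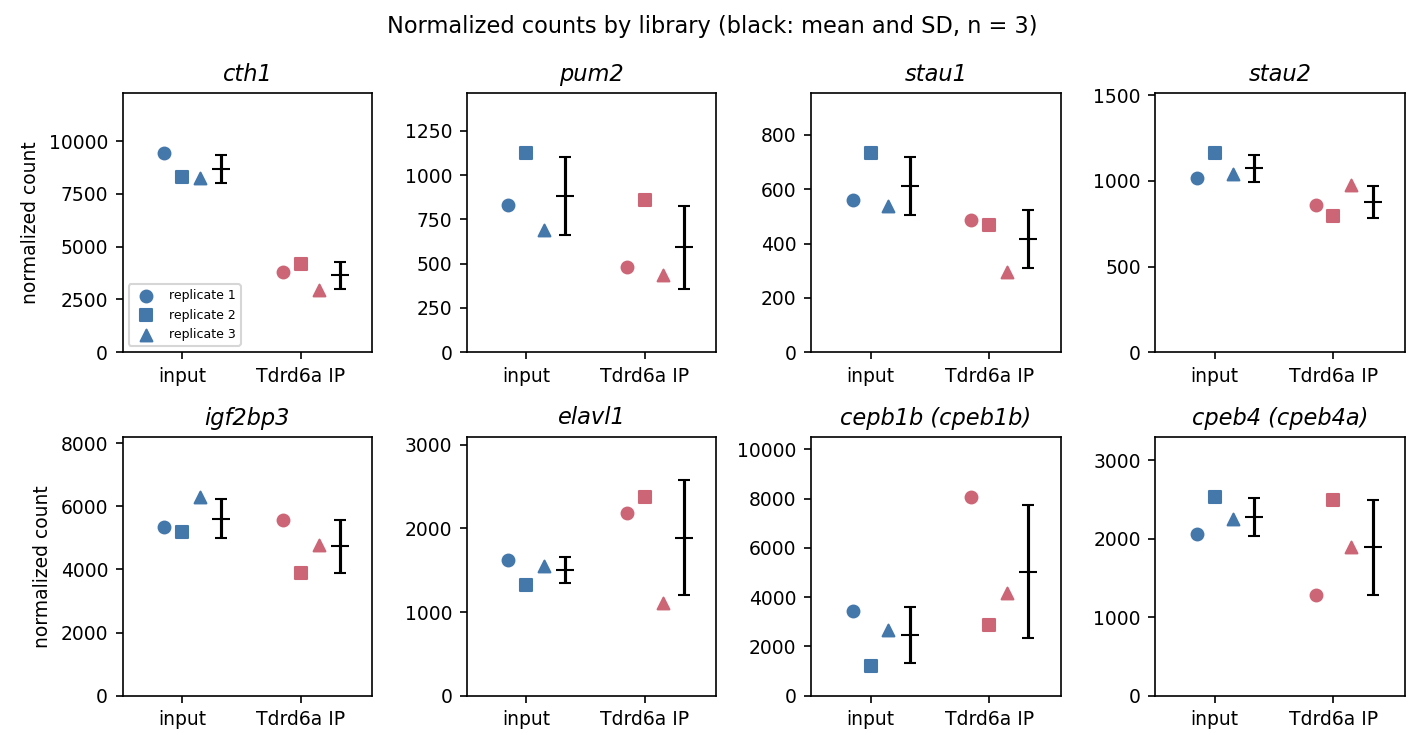
Normalized counts of the 6 members and of the CPEB rows cepb1b and cpeb4 in each library, on linear axes from 0; symbols mark the replicate number, and the black bar beside each group gives its mean and SD (n = 3). The cth1 values of the IP libraries (2928.1 to 4173.4) lie below those of input (8258.8 to 9425.0), whereas for pum2, igf2bp3, elavl1, cepb1b and cpeb4 the groups overlap.

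The cth1 gene (ENSDARG00000057328) encodes a maternally supplied protein with CCCH zinc fingers. Its transcript had 9425.0, 8299.2 and 8258.8 normalized counts in input replicates 1, 2 and 3 and 3816.1, 4173.4 and 2928.1 in IP replicates 1, 2 and 3. Every IP library was thus less than every input library, as was the case for 12.9% of all genes tested, and the spread within each group was small beside the gap. The group means were 8661 ± 662 in input and 3639 ± 641 in IP (SD, n = 3). The log2 fold change was -1.26 ± 0.26 (SE), with a 95% interval from -1.84 to -0.68 and a limma adjusted p of 0.0193. Of all genes tested, 4.44% had a lower estimate. Between same-numbered libraries the log2 difference was -1.30, -0.99 and -1.49 for numbers 1, 2 and 3. The call was lost when any 1 input library was left out, with limma adjusted p of 0.115, 0.095 and 0.099 without input replicates 1, 2 and 3, while the estimates stayed between -1.37 and -1.11 over the 6 libraries left out in turn. In the same refits the number of genes called lower over the whole table was 23, 34 and 10.

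**Figure D2:**
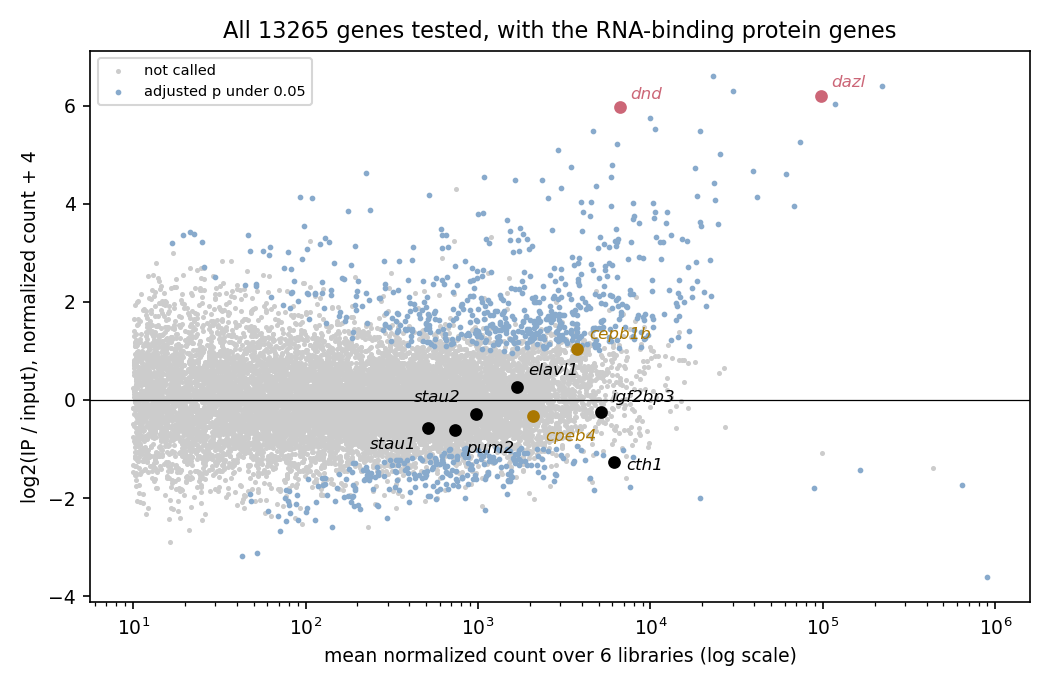
Log2 fold change of IP over input (vertical axis) against the mean normalized count over the 6 libraries (horizontal axis, log scale) for all 13265 genes tested; blue points had an adjusted p under 0.05, black points are the members, ochre points the CPEB rows and red points dazl and dnd. Of the members, cth1 (-1.26) is the lowest and elavl1 (0.26) the highest, and all of them lie far below dazl (6.20) and dnd (5.97).

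Pumilio proteins are sequence-specific repressors. The transcript of pum2 (ENSDARG00000061040) had 832.8, 1123.2 and 692.0 normalized counts in input; its IP values were 478.8, 861.0 and 435.5. Replicate 2 was the highest library of both groups, and IP replicate 2 lay above the lowest 2 input libraries, so the groups overlapped. The estimate was -0.61 ± 0.33 (95% interval -1.34 to 0.12, limma adjusted p = 0.325), an interval that reaches from 2.53-fold lower to 1.08-fold higher. Each same-numbered difference was negative (-0.79, -0.38 and -0.66). Without IP replicate 2 the estimate was -0.92 with a limma adjusted p of 0.0494, while input replicate 2, the highest input library, was kept. In that refit 13.1% of all genes were called and 4.12% were lower, against 6.32% and 1.86% with all libraries. With the replicate block the limma adjusted p of pum2 was 0.187.

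The pum3 row, matched by RefSeq synonym, encodes a nucleolar Puf-domain protein; it ran from 238.9 to 302.0 in input and from 52.6 to 364.4 in IP, where the low value was replicate 2 with 14 reads.

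Neither Staufen transcript was called. For both, every IP library lay below every input library, as for 12.9% of all genes tested. That of stau1 (ENSDARG00000044182) had 561.5, 732.9 and 538.6 normalized counts in input, with 487.9, 470.0 and 294.4 in IP. IP replicate 3 lay farthest below input. The estimate was -0.57 ± 0.30 (95% interval -1.24 to 0.10, limma adjusted p = 0.323), or -0.34 without IP replicate 3. That of stau2 (ENSDARG00000026801) had 1017.7, 1161.5 and 1039.1 in input and 856.2, 797.1 and 976.0 in IP. The gap between the groups, from 976.0 to 1017.7, is small beside their ranges. The stau2 estimate was -0.29 ± 0.25 (95% interval -0.84 to 0.25, limma adjusted p = 0.550). In zebrafish both Staufen proteins are known from work on germ cell migration and survival, and the intervals allow at most a 1.07-fold enrichment of stau1 and a 1.19-fold enrichment of stau2 in this precipitate.

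The ratio of the paralogs stau1 and stau2 overlapped between IP and input. The log2 ratio of stau1 to stau2 was -0.82 ± 0.14 in input and -1.09 ± 0.54 in IP (SD, n = 3), a shift of -0.27 (two-sided exact permutation p = 0.7, also 0.7 adjusted over the 7 ratios compared, of which 6 are reported here). IP replicate 3 decided its sign: the shift was 0.04 without it. The smallest p that this permutation test can give for this design is 0.1, which is above the threshold for a call. The test therefore cannot decide whether the recovery of stau1 and stau2 differed.

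Igf2bp3 is the zebrafish counterpart of the Vg1 RNA-binding protein, known in Xenopus for its binding to a vegetal mRNA. Its transcript (ENSDARG00000010266) had 5346.3, 5169.2 and 6301.3 normalized counts in input, with 5548.0, 3880.1 and 4777.7 in IP. IP replicate 1 lay within the input range and the other two IP libraries below it. The estimate was -0.25 ± 0.26 (95% interval -0.83 to 0.33, limma adjusted p = 0.646), which allows from 1.78-fold lower to 1.26-fold higher. The relatives igf2bp1 (-0.09 ± 0.45, adjusted p = 0.941) and igf2bp2a (-0.70 ± 0.55, adjusted p = 0.514) were not called. The igf2bp1 transcript varied between IP libraries (402.4, 131.6 and 377.6) more than the igf2bp3 transcript did, and igf2bp2a varied between input libraries (141.2, 91.9 and 36.1).

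Elavl1 (HuR) binds AU-rich elements and stabilizes mRNAs. Its transcript (ENSDARG00000038695, elavl1a in the table of gene identifiers) had 1619.6, 1324.6 and 1555.2 normalized counts in input, with 2183.6, 2379.9 and 1102.7 in IP. IP replicates 1 and 2 lay above all input libraries and IP replicate 3 below all of them. The estimate was 0.26 ± 0.32 (95% interval -0.45 to 0.97, limma adjusted p = 0.706), and leaving out IP replicate 3 gave 0.61, leaving out IP replicate 2 gave 0.05, and library size as the only scaling gave 0.07. The SD of its log2 values was 0.61 in IP against 0.15 in input, where the medians over all genes tested were 0.48 and 0.38.

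The row hug, a RefSeq synonym of elavl1b, showed the same order of IP libraries (711.0, 879.8 and 374.0, against 479.7, 699.8 and 572.7 in input; 0.09 ± 0.35, adjusted p = 0.917), an estimate whose sign turned with library size only (-0.09). The transcript of elavl2 was at 339.6, 359.5 and 328.6 in input and 273.8, 556.4 and 260.6 in IP (-0.00 ± 0.35, adjusted p = 0.997), with edgeR and DESeq2 estimates of 0.03 and 0.05. The neuronal genes of the family were scarce: elavl3 had 0 reads in every library and elavl4 at most 37.

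**Figure D3:**
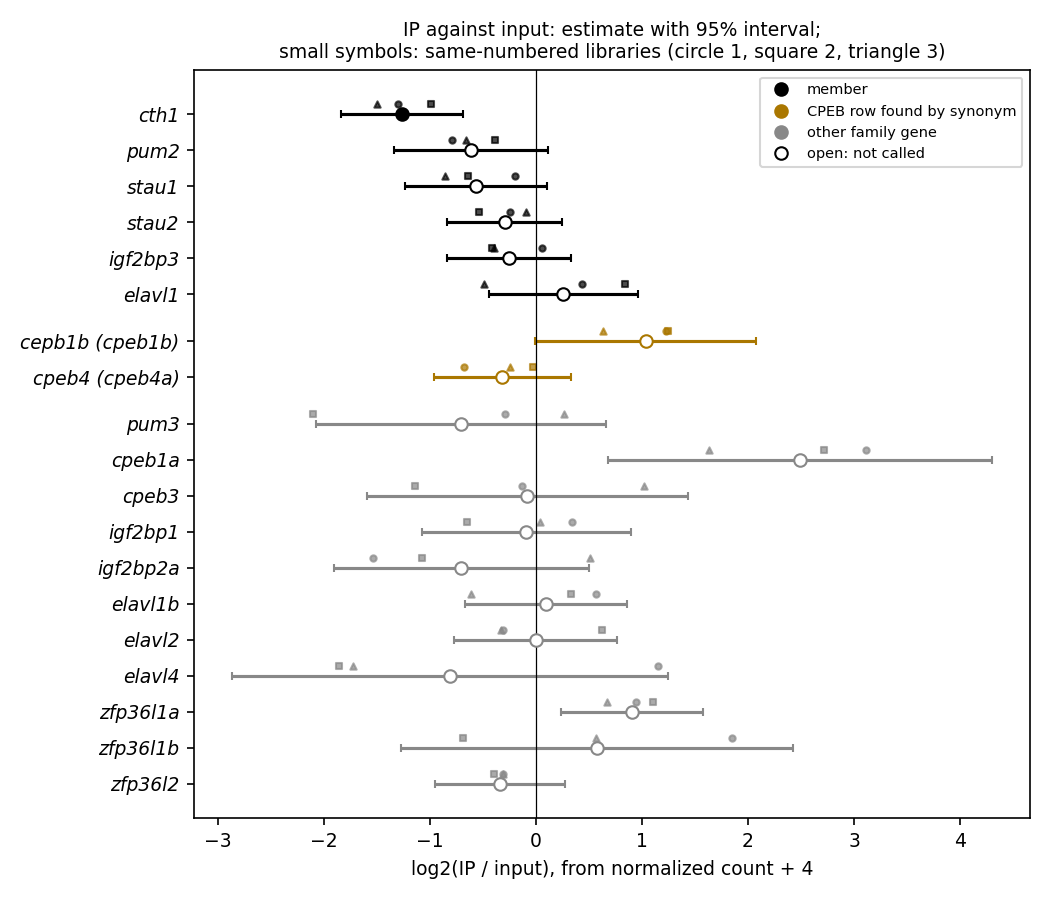
Log2 fold change of IP over input with its 95% interval for the members (black), the CPEB rows found by synonym (ochre) and other genes of these families (grey); filled circles were called, open circles were not, and the small symbols are the differences between same-numbered libraries. The cth1 interval (-1.84 to -0.68) lies below 0, those of pum2, stau1, stau2, igf2bp3 and elavl1 include 0, and the cepb1b interval (-0.00 to 2.08) only just does.

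Neither CPEB row found by synonym was called by limma without the replicate block. The cepb1b row (ENSDARG00000008454; cpeb1b by synonym), the gene of Zorba, the oocyte CPEB, had 3447.6, 1208.5 and 2681.6 normalized counts in input, with 8074.2, 2880.0 and 4153.9 in IP. Replicate 2 was the lowest library and replicate 1 the highest in both groups, and IP replicate 2 overlapped the input range. The estimate was 1.04 ± 0.46 (95% interval -0.00 to 2.08, limma adjusted p = 0.238). Every same-numbered difference was positive (1.23, 1.25 and 0.63). With the replicate block the same estimate had a limma adjusted p of 0.0463, at which 10.5% of all genes were called, but edgeR with the block gave 0.0674. Leaving out input replicate 2 lowered the estimate to 0.59, and leaving out IP replicate 1 lowered it to 0.63. These refits had no block and kept the same-numbered library of the other group. They therefore do not separate the weight of 1 replicate from the loss of its pairing.

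The cpeb4 row (ENSDARG00000056691; cpeb4a by synonym) had 2058.9, 2536.8 and 2250.7 normalized counts in input, with 1281.5, 2489.0 and 1900.2 in IP. IP replicate 2 lay inside the input range and the others below it. The estimate was -0.32 ± 0.29 (95% interval -0.96 to 0.33, limma adjusted p = 0.595), or -0.06 without IP replicate 1. The read ratio of cepb1b to cpeb4 was 2.56-fold higher in IP than in input, with overlapping groups. Its two-sided exact permutation p was 0.3, or 0.525 adjusted over the 7 ratios. This ratio was not among the planned ones.

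Among the remaining CPEB genes, cpeb1a, a paralog of cpeb1b, was nearly absent from input, with 0, 4 and 0 reads, and had 44, 11 and 7 reads in IP replicates 1, 2 and 3. All IP libraries lay above all input libraries on the normalized scale as well (8.4 to 41.4 against 0.0 to 2.9), as for 14.6% of all genes tested. It was not called by limma (adjusted p = 0.102), but it was called with the replicate block (adjusted p = 0.0443), with edgeR and the block (0.0397) and with DESeq2 (0.0175). At so few reads its fitted fold change depends on the pseudocount: the log2 estimate was 2.49 with 4, 3.89 with 1 and 1.25 with 16. The transcript of cpeb3 had 9 to 108 reads and was not called (adjusted p = 0.966), and cpeb2 had at most 7 reads in any library. How the authors counted reads that match more than 1 paralog is not given in the sources used here, so cpeb1a reads could be shared with cpeb1b, which was not tested.

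Relatives of Cth1 in the tristetraprolin family were not called by limma. The transcript of zfp36l1a had 2112.7, 3169.0 and 2408.9 normalized counts in input, with 4072.6, 6824.0 and 3842.6 in IP. All IP libraries lay above all input libraries, as for 14.6% of all genes, but the gene was not called by limma (0.91 ± 0.30, 95% interval 0.24 to 1.58, adjusted p = 0.107); DESeq2 called it (adjusted p = 0.0473), with 12.5% of all genes called by that test. The transcript of zfp36l2 had 3349.0, 5136.1 and 4010.4 in input and 2700.7, 3906.4 and 3237.0 in IP, overlapping groups with an estimate of -0.34 ± 0.28 (adjusted p = 0.540). The transcript of zfp36l1b was scarce, with at most 28 reads.

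Ratios within a library set these transcripts against each other. The read ratio of zfp36l1a to cth1 was 0.22, 0.38 and 0.29 in input replicates 1, 2 and 3 and 1.07, 1.64 and 1.31 in IP, a 4.50-fold shift. The ratio of zfp36l1a to zfp36l2 was 0.63, 0.62 and 0.60 in input and 1.51, 1.75 and 1.19 in IP, a 2.37-fold shift whose input values were nearly constant. In both, the IP ratios all exceeded the input ratios (exact permutation test, two-sided, p = 0.1, the minimum for this design; 0.233 adjusted over the 7 ratios), which does not pass 0.05. A ratio within a library does not depend on how the library was scaled. These ratios were chosen after the values were seen. The ratios of elavl2 to elavl1 and igf2bp1 to igf2bp3, also not planned, shifted by -0.26 and 0.16 on the log2 scale. Their two-sided exact permutation p was 0.6 for each.

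The strongly enriched RNA-binding protein transcripts of the germ plasm give the scale of enrichment in these libraries. The transcript of dazl had 180740, 337630 and 57386 normalized counts in IP against 1696.4 to 2340.3 in input (95% interval of the log2 fold change 4.93 to 7.47), and that of dnd was at 5.97 ± 0.41. For the 6 members the upper ends of the 95% intervals ran from -0.68 (cth1) to 0.97 (elavl1, 1.95-fold).

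Genes whose libraries followed the members most closely were found by the Euclidean distance between log2 profiles, each centred on its own mean over the 6 libraries, among the other 9146 named genes with a mean of at least 50. The nearest gene was dldh to elavl1 (distance 0.13 against a median of 1.49 over those genes), ppox to stau1 (0.16 against 1.47), sdf4 to stau2 (0.13 against 1.22), larsa to cepb1b (0.34 against 2.29) and ppp4r4 to cpeb4 (0.20 against 1.41). For cth1 it was si:ch211-160d20.3 (0.17 against 1.91), for pum2 si:dkeyp-50f7.2 (0.21 against 1.62) and for igf2bp3 si:rp71-19m20.1 (0.09 against 1.24). Among the members and CPEB rows themselves, igf2bp3 and stau2 were the closest pair (0.46), followed by pum2 and stau1 (0.67). Each nearest gene is the smallest of 9146 distances over 6 libraries, so it lies below their median by construction. Profiles were centred but not scaled, so transcripts that vary little come out close to each other.

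Partners and relatives of these proteins were read from 6 lists, drawn up from their known roles, of 143 genes tested in all. Of these, 13 were higher, 7 lower and 123 not called, which is 13.99% called against 6.32% over all genes; the median log2 fold change was -0.01, as over all genes. The lists hold dazl, dnd and celf1, whose enrichment was known when the lists were drawn up, and these are not separate evidence.

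Of 29 genes of cytoplasmic polyadenylation and of CPEB partners, limma called 0 higher and 0 lower, against 4.46% and 1.86% of all genes. The list's median was -0.06. The smallest p belonged to cpsf2, a subunit of the cleavage and polyadenylation factor (1.04 ± 0.29, adjusted p = 0.0589; 690.4, 563.1 and 632.0 normalized counts in input, 1750.6, 943.7 and 1303.0 in IP). With the replicate block limma called 3 higher, cpsf2 among them (adjusted p = 0.0322), against 6.97% of all genes. DESeq2 called 3 higher and 1 lower, against 8.19% and 4.35% of all genes. edgeR called 0, against 6.34% in either direction.

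Over all genes 4.46% were higher and 1.86% lower. Of 19 Pumilio and Nanos partners and Ccr4-Not subunits, 5 were higher and 0 lower (median 0.01). Beside dazl and dnd these were the deadenylase genes cnot7 (1.81 ± 0.35, adjusted p = 0.0148), cnot8 (1.25 ± 0.32, adjusted p = 0.0439) and cnot6a (row cnot6; 1.10 ± 0.27, adjusted p = 0.0365), the last pair named after their values were seen. The catalytic subunits cnot7 and cnot8 are paralogs, and both had all IP libraries above all input libraries, as for 14.6% of all genes tested. Of the 19 genes of this list, 7 had all IP libraries above all input libraries. Another 3 had all of them below, as for 12.9% of all genes tested. Estimates lay below 0 for 9 of the 19. With edgeR, cnot6a and cnot8 were not called (adjusted p = 0.0615 and 0.0509), and cnot6a was not called with the block (0.0699).

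Of 21 Staufen-related and RNA transport genes, 3 were higher and 0 lower (median 0.01), against 4.46% and 1.86% of all genes. Higher were ilf3a, of the double-stranded RNA-binding family (1.42 ± 0.34, adjusted p = 0.0331), and purbb, a Pur-alpha relative (1.80 ± 0.47, adjusted p = 0.0462). So was eif4a3, a core component of the exon junction complex (1.01 ± 0.26, adjusted p = 0.0469). That call is for eif4a3 alone and not for the complex. Estimates lay below 0 for 10 of the 21 genes. For 5 genes all IP libraries lay above all input libraries and for 4 below, against 14.6% and 12.9% of all genes tested.

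The list for AU-rich element binding held genes called in both directions. Whether each listed protein binds such elements was not checked here. Of 20 tested, elavl1 not counted, 3 were higher and 4 lower (median 0.05), against 4.46% and 1.86% of all genes. Higher were celf1 (4.61 ± 0.47, adjusted p = 0.000629), celf2 (1.69 ± 0.41, adjusted p = 0.0358) and rc3h1b, a Roquin gene (row si:dkey-60b12.1; 1.45 ± 0.32, adjusted p = 0.0255). Lower were tia1, a translational repressor of stress granules (-1.24 ± 0.27, adjusted p = 0.0216), the heterogeneous nuclear ribonucleoprotein genes hnrnpaba (-1.32 ± 0.31, adjusted p = 0.0305) and hnrnpabb (-1.01 ± 0.25, adjusted p = 0.0365), and khsrp, a decay factor (-1.11 ± 0.28, adjusted p = 0.0381; named after its values were seen). The lower genes had estimates from -1.32 to -1.01, beside -1.26 for cth1. All were picked by the same threshold, and no called gene of the whole table had an absolute log2 fold change below 0.94. Their likeness to cth1 is therefore not a separate result.

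Of 20 Igf2bp, Y-box and m6A reader genes, 0 were higher and 1 lower, against 4.46% and 1.86% over all genes. Estimates lay below 0 for 16 of 20, against 50.4% of all genes, and their median was -0.36. The count was 3 lower with library size only, where 2.89% of all genes were lower. With the replicate block it was 2 lower and 1 higher, against 3.52% and 6.97% of all genes. With DESeq2 it was 4 lower and 1 higher, against 4.35% and 8.19%.

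Of 34 other translational repressors, 2 were higher and 2 lower (median 0.02), against 4.46% and 1.86% of all genes. Higher were caprin2 (1.75 ± 0.39, adjusted p = 0.0248) and rbpms2a, an RNA-binding protein gene of the Balbiani body (1.65 ± 0.35, adjusted p = 0.0199). Lower were caprin1b, whose protein binds G3bp in RNA granules (-1.13 ± 0.27, adjusted p = 0.0314), and lsm14aa, of the Rap55 family of translational repressors (-1.24 ± 0.25, adjusted p = 0.0179). Of the 3 caprin genes tested, caprin2 was thus called higher and caprin1b lower by limma without the replicate block. The transcript of caprin1a (-1.16 ± 0.35, limma adjusted p = 0.0785, named after its values were seen) was not called there. With the block 3 genes of this list were higher and 3 lower, against 6.97% and 3.52% of all genes. Whether caprin1a is among them is not reported here. The normalized counts were, for caprin2, 16958, 19792 and 6883 in IP against 3423 to 4710 in input and, for caprin1b, 3380, 3922 and 2742 in IP against 6681 to 8466 in input.

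Of the 20 list genes called, 17 lost their call when any 1 of the 3 input libraries was left out, and leaving out IP replicates 1, 2 and 3 cost 14, 1 and 5 calls. The calls of dazl, dnd and celf1 were kept under all 16 alternatives.

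**Figure D4:**
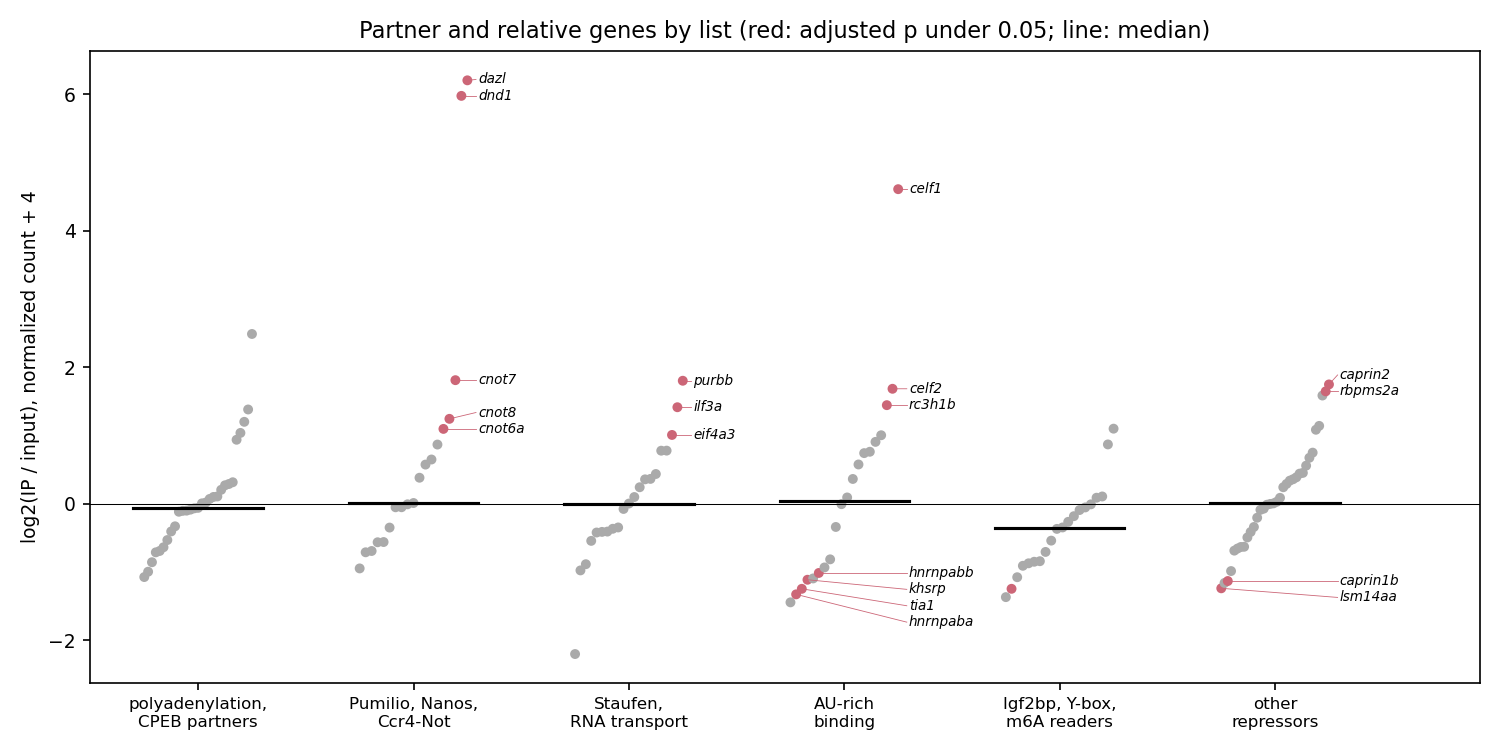
Log2 fold change of IP over input for every tested gene of the 6 lists, sorted within each list; red points had an adjusted p under 0.05 and those described in the text are named, and the black line is the list's median. The medians lie between -0.36 and 0.05, and apart from dazl, dnd (dnd1) and celf1 no called gene exceeds 1.81.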

How the data were processed

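RIP-seq libraries from zebrafish zygotes, 3 of Tdrd6a IP and 3 of input, were analysed. Per the labels, Trizol-extracted RNA went into the NuGEN Ovation V2 kit and was read as single ends on a HiSeq. TopHat, DESeq and the build Zv9 appear in the submitters' processing notes without versions. Which counter and annotation were used, and whether strand was kept, is not given in the sources used here; reads of a gene and an overlapping antisense gene may therefore be mixed. The deposited signal is a count of reads that the authors normalized with 1 factor per library, to 1 decimal.

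Values in a library proved to be multiples of 1 constant, 0.682 to 3.76 normalized counts per read; dividing by it recovered whole reads, with at least 99.98% of the values above 0 within 0.06 of a multiple. Totals were 10481205, 16048024 and 19804774 reads in input replicates 1, 2 and 3 and 22466764, 4031863 and 9701595 in IP. On these reads edgeR called 841 genes.

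The main test was limma 3.58.1 (trend, robust; R 4.3.3) on log2(normalized count + 4), group as the only term, two-sided, over the 13265 genes with a mean of at least 10, with Benjamini-Hochberg adjustment. Fold changes on that scale understate the change of low genes. Intervals are 95% limma intervals, unadjusted. edgeR 4.0.16 and DESeq2 1.42.0 on recovered reads, other scalings, filters and pseudocounts, the replicate block and leaving out each library were alternatives. The fit was tested on simulated reads. Python 3.11.15 with scipy 1.17.1 gave ratios and exact tests. The planned ratios with cpeb4b could not be formed.

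Same-numbered libraries deviated together from their group means, so the label numbers pair them. Their correlations across genes were 0.294, 0.305 and 0.301 for numbers 1, 2 and 3. Other pairs gave -0.210 to -0.0704, but deviations within a group cancel, so these negative values are not separate evidence of pairing. The main calls, the intervals and the exact tests given above did not use the pairing, and the block was an alternative. With the block limma called 1392 genes, against 838 without it. Each refit without 1 library kept the same-numbered library of the other group. No libraries of a group agreed within sampling noise.

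The members, gene lists and tests were chosen with earlier results of these data known. Symbols were matched to the file, then to RefSeq synonyms (GRCz12tu), then to a table of gene identifiers. Named were tdrd6, the members, their family genes, up to 3 called genes per direction and list (or the smallest p), and each member's nearest profile. Sequences of these genes were not used here. Results for some genes of the families and lists are not reported here; counts over lists include every gene tested.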

Additional observations from a re-analysis of the deposited data

How the results depend on the processing

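The 6 members gave 96 values under 16 alternatives: 92 kept direction and call, 3 (cth1 without an input library) lost the call, 1 (pum2 without IP replicate 2) gained it and 0 reversed. The member count of 1 ran from 0 to 2 with 1 library left out. Over all genes, 838 calls became 500 when all genes with a read were tested, 1627 by DESeq2 and 1392 under the replicate block, and 193 to 1732 with 1 library left out. Among the genes named, caprin1a apart, the block changed the calls of cepb1b, cpeb1a, cpsf2 and cnot6a, as given above. The result of caprin1a under the block is not reported here.

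For the polyadenylation list, 0 calls became 1 at a mean of at least 50, 4 with DESeq2, 3 with the replicate block and 3 with edgeR and the block (leave-one-out 0 to 3). For the Pumilio list, 5 became 3 with library size only and 3 with edgeR (2 to 8). For the Staufen list, 3 became 1 with library size only, 0 with no filter and 5 with DESeq2 (0 to 5). For the AU-rich list, 7 became 2 with no filter (1 to 8). For the Igf2bp list, 1 became 3 with library size only, 0 with no filter, 2 at a mean of at least 50, 5 with DESeq2, 3 with the block and 2 with edgeR and the block (0 to 4). For the other repressors, 4 became 2 with no filter and 8 with DESeq2 (0 to 9). The share of all genes called moved as well. It was 6.46% with library size only, 2.56% with no filter, 9.11% at a mean of at least 50 and 6.34% with edgeR. It was 12.5% with DESeq2, 10.5% with the block, 9.41% with edgeR and the block and 1.45% to 13.1% with 1 library left out. The cause of these changes was not tested.

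Among the single genes reported, signs turned only for uncalled estimates. The estimate of igf2bp1 was 0.014 with edgeR and 0.024 with DESeq2, elavl1b was -0.094 with library size only, and elavl2 was 0.033 with edgeR and 0.046 with DESeq2. With 1 library left out, pum3 ran from -1.25 to 0.10, cpeb3 from -0.43 to 0.57, igf2bp1 from -0.37 to 0.42, elavl1b from -0.16 to 0.45, elavl2 from -0.35 to 0.19, zfp36l1b from -0.18 to 1.13 and the stau1 to stau2 shift from -0.44 to 0.038. Depth limits cpeb1a, cpeb2, cpeb3, elavl4 and zfp36l1b, each with libraries under 10 reads; the ratios with cpeb4b were not run.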
